A study of Mus musculus with 11 samples.

Results

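Glycolysis breaks glucose down to pyruvate in the cytosol, and lactate dehydrogenase turns pyruvate into lactate. The hypoxia-inducible factors (HIF) are transcription factors whose alpha subunit is hydroxylated and degraded when oxygen is present. When the subunit is stable it binds hypoxia response elements of many genes, among them those of most glycolytic enzymes, the glucose transporter GLUT1 and the growth factor VEGF-A. In macrophages, inflammatory stimuli can raise glycolysis and HIF targets while oxygen is available.

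The 32 genes described here cover this pathway in mouse macrophages treated with the secreted protein CYR61. They were taken by gene symbol from a table of 55487 gene IDs. Of the 32, 16 encode glycolytic enzymes, 3 transport glucose or lactate, and 3 regulate flux into or out of the pathway. The other 10 are 9 further hypoxia targets and Hif1a, the gene of a HIF alpha subunit. All but Adm had enough counts to be tested, which left 31 among the 15135 genes tested.

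RNA sequencing was done on bone marrow-derived macrophages, primary cells grown for 5 to 6 days from marrow of C57BL/6J mice aged 2 to 5 months. The CYR61 group (4 libraries) received 0.5 µg/ml CYR61 for 24 h, and the control group (7 libraries) received 0 µg/ml. CYR61, also called CCN1, is a matrix-associated protein that binds integrins. Both groups were kept in medium with CMG-conditioned medium, a source of macrophage colony-stimulating factor, and the labels name no oxygen condition. Whether the libraries came from separate mice or cultures is not stated, so p-values reflect variation among libraries that could be purely technical.

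CYR61 libraries held 17390272 to 20760322 counts and control libraries 14912123 to 21047654 counts. Macrophage markers (8 genes, among them Adgre1, Csf1r and Cd68) summed to 24710 to 26920 CPM in CYR61 libraries and 22340 to 23730 CPM in control libraries. CPM are counts scaled to the library total times its TMM factor, which adjusts for composition. Lyz2 held most of the sum, at 18430 to 20250 CPM in CYR61 libraries and 16580 to 17890 CPM in control libraries. Of the 8, 5 were called higher, and Cd68, Mertk and Cd14 did not pass. Calls are at an adjusted p under 0.05 in edgeR, by the test described below. Over all genes tested, 5.33% were called higher and 2.63% lower. Among genes averaging 10 CPM or more it was 7.87% and 3.83%. Cycling-cell markers (6 genes) summed to 916 to 1026 CPM in CYR61 libraries and 1151 to 1212 CPM in control libraries, and 4 of the 6 were called lower. Neutrophil markers (8 genes) summed to 1.66 to 2.12 CPM in CYR61 libraries and 0.785 to 1.39 CPM in control libraries, without overlap. S100a8, the 1 of them tested, made up most of that sum, at 1.55 to 1.88 CPM in CYR61 libraries and 0.634 to 1.34 CPM in control libraries. It was called higher, at 12 to 32 counts per library. All CYR61 libraries lay above all controls for it, as for 4.65% of all genes tested. S100a9 had 0 counts in every CYR61 library and at most 2 counts in a control library, and Ly6g had 0 counts in every library. Osteoclast markers (5 genes) summed to 28.9 to 34.3 CPM in CYR61 libraries and 24.6 to 30.5 CPM in control libraries, with overlap. Ctsk held most of that sum, averaging 21.6 CPM in CYR61 libraries and 20.4 CPM in control libraries, and did not pass. Acp5 was called higher, averaging 9.08 CPM in CYR61 libraries and 7.11 CPM in control libraries. Dcstamp did not pass, Ocstamp was not tested, and Calcr had 0 counts in every library. Of the 5 T cell markers, Cd3e and Cd3g had 0 counts in every library, and Cd3d and Cd8a had at most 3 counts in a library. Cd4, the 1 tested, had 1 to 21 counts per library and did not pass (edgeR adjusted p = 0.412). It averaged 0.793 ± 0.320 CPM in CYR61 libraries and 0.510 ± 0.247 CPM in control libraries (SD), with overlap. The part of these differences in the results below was not tested. In bulk RNA, a different share of a cell type and a different amount of RNA per cell cannot be told apart. The TMM scaling factor was 0.971 to 0.993 in CYR61 libraries and 1.00 to 1.02 in control libraries, without overlap (exact permutation over 330 splits, two-sided p = 0.00303, the smallest it can give; adjusted over 4 library measures p = 0.0121).

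Most glycolytic enzyme genes were higher in CYR61-treated macrophages, by small amounts. Of the 16 enzymes, 12 rose and 0 fell. Of the 8 other hypoxia targets tested, 0 rose and 1, Vegfa, fell. These calls are from edgeR's quasi-likelihood test with Benjamini-Hochberg adjustment over all genes tested, at an adjusted p under 0.05. Over all genes tested, 5.33% were called higher and 2.63% lower. Among genes averaging 10 CPM or more, as all 16 enzymes did, 7.87% were called higher and 3.83% lower. At an unadjusted p under 0.05 the counts were 14 higher and 0 lower for the enzymes and 0 higher and 1 lower for the other targets. DESeq2 called 13 enzymes and 0 other targets higher, and limma-voom 12 and 0. The median log2 fold change was 0.18 for the enzymes (1.14-fold), -0.03 for the other targets and -0.01 over all genes tested.

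None of the 31 genes tested changed by as much as 1.5-fold in the fit. The largest rise was that of Pgk1, at 1.31-fold. Over all 31 tested, 15 rose, 1 fell and 15 did not pass, so 16 were called, against 7.96% of all genes tested in either direction. All 4 CYR61 libraries lay above all 7 control libraries for 15 of the 31, against 4.65% of all genes tested, and all below for 0, against 2.5%. The summed level of the 16 enzymes was 6240 to 6679 CPM in CYR61 libraries and 5518 to 5883 CPM in control libraries. For the 8 other targets tested the sum was 337 to 346 CPM in CYR61 libraries and 347 to 360 CPM in control libraries. Neither sum overlapped between the groups, although those of the other targets nearly touched. The enzyme sum was higher and the other-target sum lower with CYR61. Sums are weighted to abundant genes: Pkm and Aldoa averaged 2173 and 993 CPM of the 5722 CPM enzyme sum in control libraries. Ndrg1 and Vegfa averaged 122 and 86.1 CPM of 353 CPM there for the other targets. Of those 8 targets, 3 had a positive log2 fold change. Without the TMM factors, by library size alone, 9 of the 31 were called higher, 8 of them enzymes. That scaling shifted the median over all genes by -0.04 on the log2 scale.

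**Figure D1:**
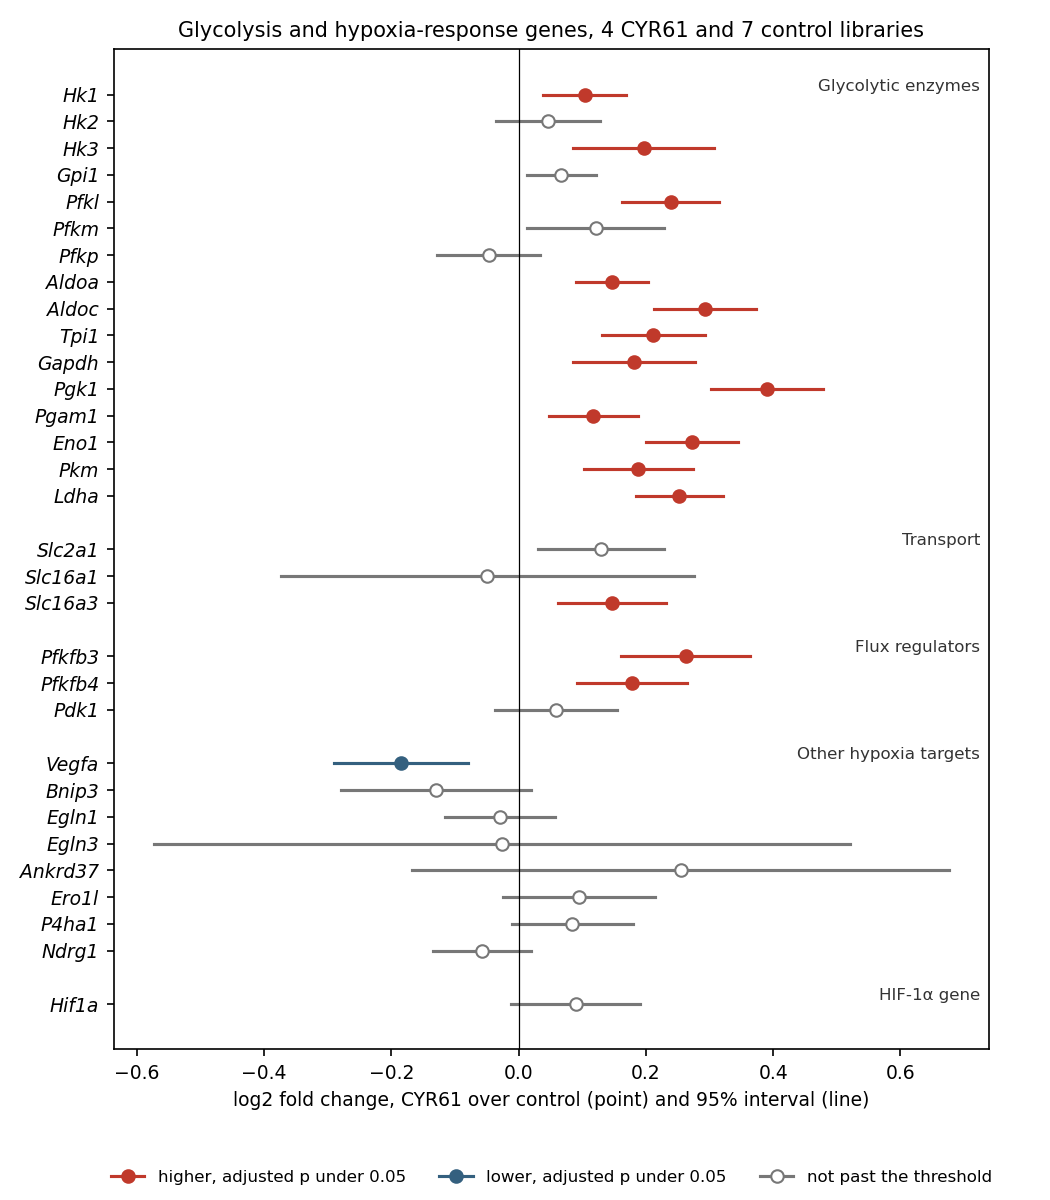
Log2 fold change of CYR61 over control (horizontal axis) for the 31 genes tested, grouped by class from top to bottom, with 95% intervals from the edgeR fit; filled points passed an adjusted p of 0.05. All 12 enzymes that passed lie right of 0, Pgk1 farthest at 0.39, and Vegfa is the 1 gene that passed on the left, at -0.19.

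For the lower stage of glycolysis, which carries triose phosphate to lactate and yields the ATP, a transcript of every step was higher. All 6 of its enzyme genes were called higher, against 7.87% of genes averaging 10 CPM or more. Their median log2 fold change was 0.22. By library size alone, Gapdh and Pgam1 did not pass. Pgk1, phosphoglycerate kinase, makes the first ATP of this stage. It had 187, 200.0, 187 and 207 CPM in CYR61 replicates 1 to 4, against a lowest value of 137, a median of 149 and a highest of 159 CPM in control libraries. Every CYR61 library lay above every control library. Its log2 fold change was 0.39 ± 0.04 (SE; edgeR adjusted p = 1.06e-05).

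Eno1, the ubiquitous enolase, had 463, 450.2, 446 and 460.0 CPM in CYR61 replicates 1 to 4, against 350 to 403 CPM with a median of 380 CPM in control libraries. The 4 CYR61 libraries lay close together and above all controls, at a log2 fold change of 0.27 ± 0.03 (SE; edgeR adjusted p = 5.1e-05). Ldha, the lactate dehydrogenase subunit that predominates in glycolytic tissues, had 343, 338, 318 and 347 CPM in CYR61 replicates 1 to 4, against 269 to 293 CPM with a median of 285 CPM in control libraries. Its groups did not overlap either, and its log2 fold change was 0.25 ± 0.03 (SE; edgeR adjusted p = 6.15e-05).

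Pkm, the pyruvate kinase of most tissues, had the highest level per kb of exon of the 32 genes. It had 2660, 2325, 2325 and 2592 CPM in CYR61 replicates 1 to 4, against 2001 to 2263 CPM with a median of 2186 CPM in control libraries. The groups did not overlap, but CYR61 replicates 2 and 3 were close to the highest control. Its log2 fold change was 0.19 ± 0.04 (SE; edgeR adjusted p = 0.00601), and without CYR61 replicates 1 and 4 together it was 0.10 (adjusted p = 0.16).

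Gapdh, which oxidizes glyceraldehyde phosphate, had 286, 322, 310 and 338 CPM in CYR61 replicates 1 to 4, against 256 to 300 CPM in control libraries, so that replicate 1 fell within the control range. Its rise (1.13-fold, edgeR adjusted p = 0.018) was lost without CYR61 replicate 2 or 4 (adjusted p = 0.0707 to 0.0825). Gapdh is widely used as a constant reference transcript. Pgam1, phosphoglycerate mutase, had 294 to 320 CPM in CYR61 libraries and 270.0 to 291 CPM in control libraries, without overlap. Its rise was 1.08-fold (edgeR adjusted p = 0.0343). The call was lost without CYR61 replicate 2, 3 or 4 or without control replicate 1, 2 or 6 (adjusted p = 0.0545 to 0.129).

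**Figure D2:**
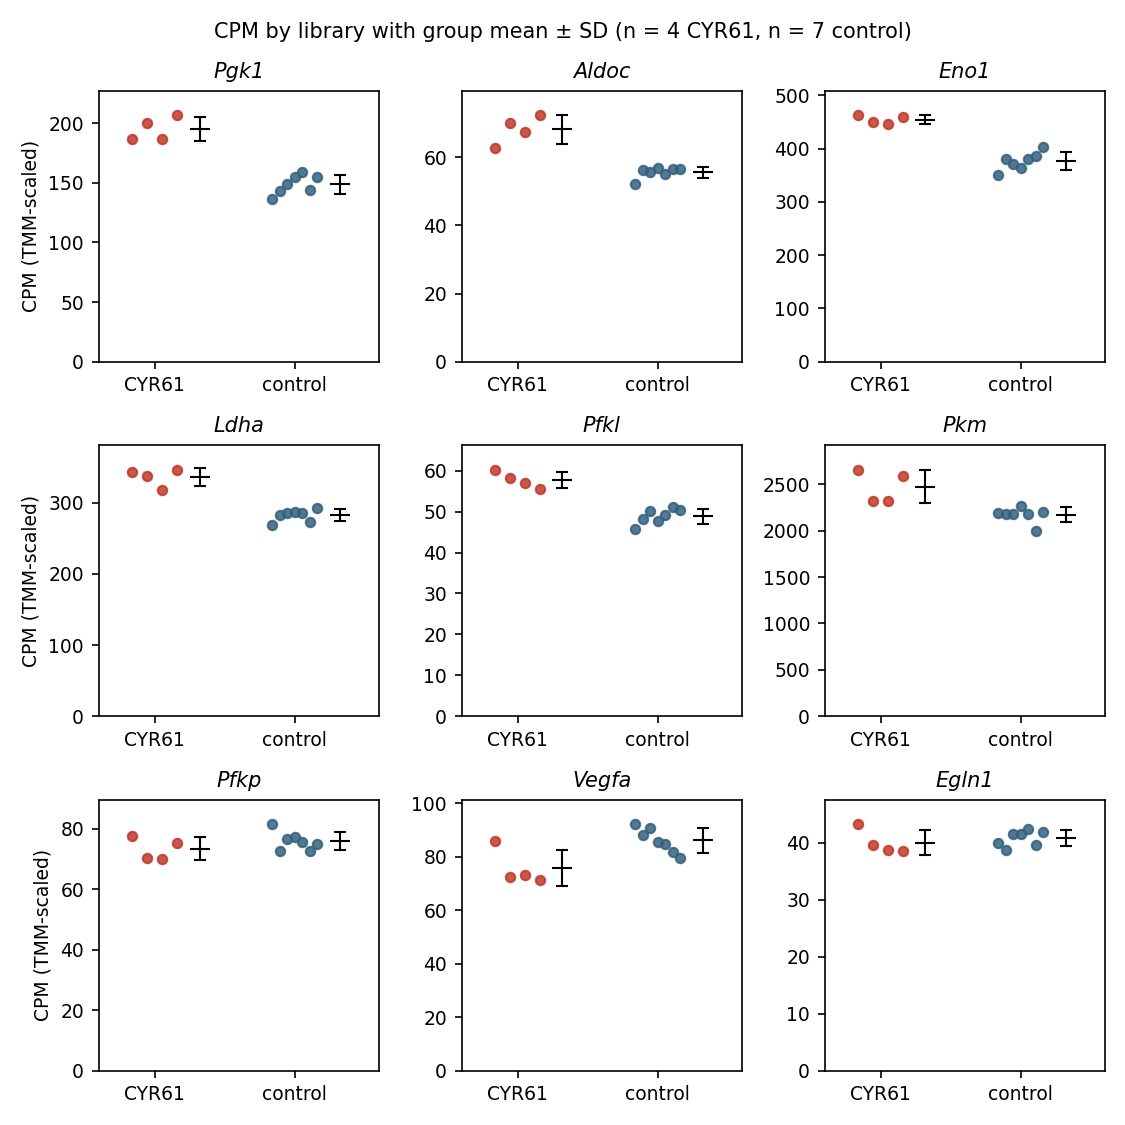
CPM per library (points) with group mean ± SD (bars), CYR61 (4 libraries) left of control (7 libraries), for 9 of the genes; each vertical axis starts at 0. The groups do not overlap for Pgk1, Aldoc, Eno1, Ldha, Pfkl and Pkm, and they overlap for Pfkp, Vegfa and Egln1.

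In the upper stage, from glucose to triose phosphate, 6 of 10 enzyme genes rose and 0 fell. Among genes averaging 10 CPM or more, 7.87% were called higher and 3.83% lower. The median log2 fold change of the 10 was 0.13. Several of its steps have isoforms encoded by different genes. Of the hexokinases, which trap glucose in the cell as glucose phosphate, Hk3, the form typical of blood cells, had 280.0, 252, 258 and 257 CPM in CYR61 replicates 1 to 4, against 201 to 256 CPM in control libraries. One CYR61 library lay inside the control range. Hk3 rose 1.15-fold (edgeR adjusted p = 0.027), a call lost without CYR61 replicate 1 or 3 or control replicate 5 (adjusted p = 0.0523 to 0.0825).

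Hk1, the hexokinase found in most tissues, averaged 145 ± 4.57 CPM in CYR61 libraries and 135 ± 3.66 CPM in control libraries (SD, n = 4 and 7). Its groups did not overlap, but its call (edgeR adjusted p = 0.0469) was lost without any 1 of 9 of the 11 libraries (adjusted p = 0.0505 to 0.111), control replicates 1 and 7 being the exceptions. Hk2, the insulin-regulated form and a HIF target, averaged 94.4 ± 7.09 CPM in CYR61 libraries and 91.4 ± 1.82 CPM in control libraries (SD) and did not pass (edgeR adjusted p = 0.562). Gpi1, which isomerizes glucose phosphate to fructose phosphate, had 415 to 419 CPM in CYR61 libraries and 389 to 406 CPM in control libraries. The groups did not overlap, yet Gpi1 missed the threshold in edgeR (adjusted p = 0.136) and passed it in DESeq2 (adjusted p = 0.0146).

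Phosphofructokinase commits sugar to glycolysis and is made of liver (Pfkl), muscle (Pfkm) and platelet (Pfkp) type subunits. Pfkl had 60.3, 58.1, 57.1 and 55.6 CPM in CYR61 replicates 1 to 4, against 45.8 to 51.0 CPM with a median of 49.2 CPM in control libraries. All CYR61 libraries were above all controls, and the log2 fold change was 0.24 ± 0.04 (SE; edgeR adjusted p = 0.000284). Pfkp had 77.8, 70.5, 70.1 and 75.5 CPM in CYR61 replicates 1 to 4, against 72.7 to 81.6 CPM with a median of 75.6 CPM in control libraries. The Pfkp groups overlapped and it did not pass (log2 fold change -0.05, edgeR adjusted p = 0.544). Pfkm averaged 24.7 ± 1.20 CPM in CYR61 libraries and 22.7 ± 1.18 CPM in control libraries (SD) and did not pass either (edgeR adjusted p = 0.181).

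The makeup of the phosphofructokinase transcripts differed between the groups. With each gene's CPM divided by its exon length in kb, Pfkl made up 38.0 ± 1.11% of the 3 transcripts in CYR61 libraries (36.4 to 38.9%) and 34.2 ± 1.37% in control libraries (31.5 to 35.9%). Pfkp made up 41.9 ± 1.16% in CYR61 libraries (40.4 to 42.8%) and 46.1 ± 1.59% in control libraries (44.4 to 48.7%). Neither share overlapped between the groups, and each gave p = 0.00303 by exact permutation (two-sided, 330 splits), the smallest it can give. Adjusted by Benjamini-Hochberg over the 12 isoform shares compared, this was 0.0182. Without any 1 library the shares still did not overlap. The adjusted p was then 0.0286 without a control library and 0.025, 0.1, 0.05 and 0.05 without CYR61 replicates 1 to 4 in turn, where 120 splits allow no p below 0.00833. Other isoform shares did not pass, among them Hk3 among the hexokinases, at 62.6 ± 0.773% in CYR61 libraries and 60.7 ± 2.20% in control libraries (SD; exact permutation p = 0.124, adjusted p = 0.248).

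Aldolase splits the hexose into triose phosphates. Aldoc, the brain-type aldolase, had 62.8, 70.1, 67.4 and 72.4 CPM in CYR61 replicates 1 to 4, against 52.1 to 57.0 CPM with a median of 56.4 CPM in control libraries. The groups did not overlap, and its rise was second in size among the enzymes (log2 fold change 0.29 ± 0.04, SE; edgeR adjusted p = 7.42e-05). Aldoa, the main aldolase, had 1125, 1079, 1078 and 1117 CPM in CYR61 replicates 1 to 4, against 959 to 1014 CPM with a median of 1004 CPM in control libraries. It too was higher in every CYR61 library, by 1.11-fold (edgeR adjusted p = 0.0018). Aldoc remained the minor form, at 3.66 ± 0.245% of aldolase transcripts per kb in CYR61 libraries and 3.32 ± 0.106% in control libraries (SD; exact permutation p = 0.0182, adjusted over 12 shares p = 0.0546). Tpi1, which interconverts the triose phosphates, had 149, 155, 156 and 154 CPM in CYR61 replicates 1 to 4, against 124 to 141 CPM in control libraries. It rose 1.16-fold without overlap (edgeR adjusted p = 0.00158).

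Some enzyme genes have near-identical copies elsewhere in the genome, which makes their counts uncertain. The retrogene Pgk1-rs7 held 16.7% as many counts as Pgk1, at 34.3 ± 7.70 CPM in CYR61 libraries and 24.1 ± 6.43 CPM in control libraries (SD; edgeR adjusted p = 0.102). The retrogene Eno1b held 23.0% as many as Eno1, at 96.8 ± 6.64 CPM in CYR61 libraries and 91.0 ± 6.42 CPM in control libraries (SD; edgeR adjusted p = 0.364). Pgam1-ps2 held 10.7% as many as Pgam1. With the copies' counts added to their parent genes, 12 of 16 enzymes were again called higher. Leaving out all 8 enzymes with named copies left 5 of 8 called higher, with a median log2 fold change of 0.15. With Gpi1 kept, whose copy Gpi-ps held 0.405% as many counts, it was 5 of 9 and 0.12.

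**Figure D3:**
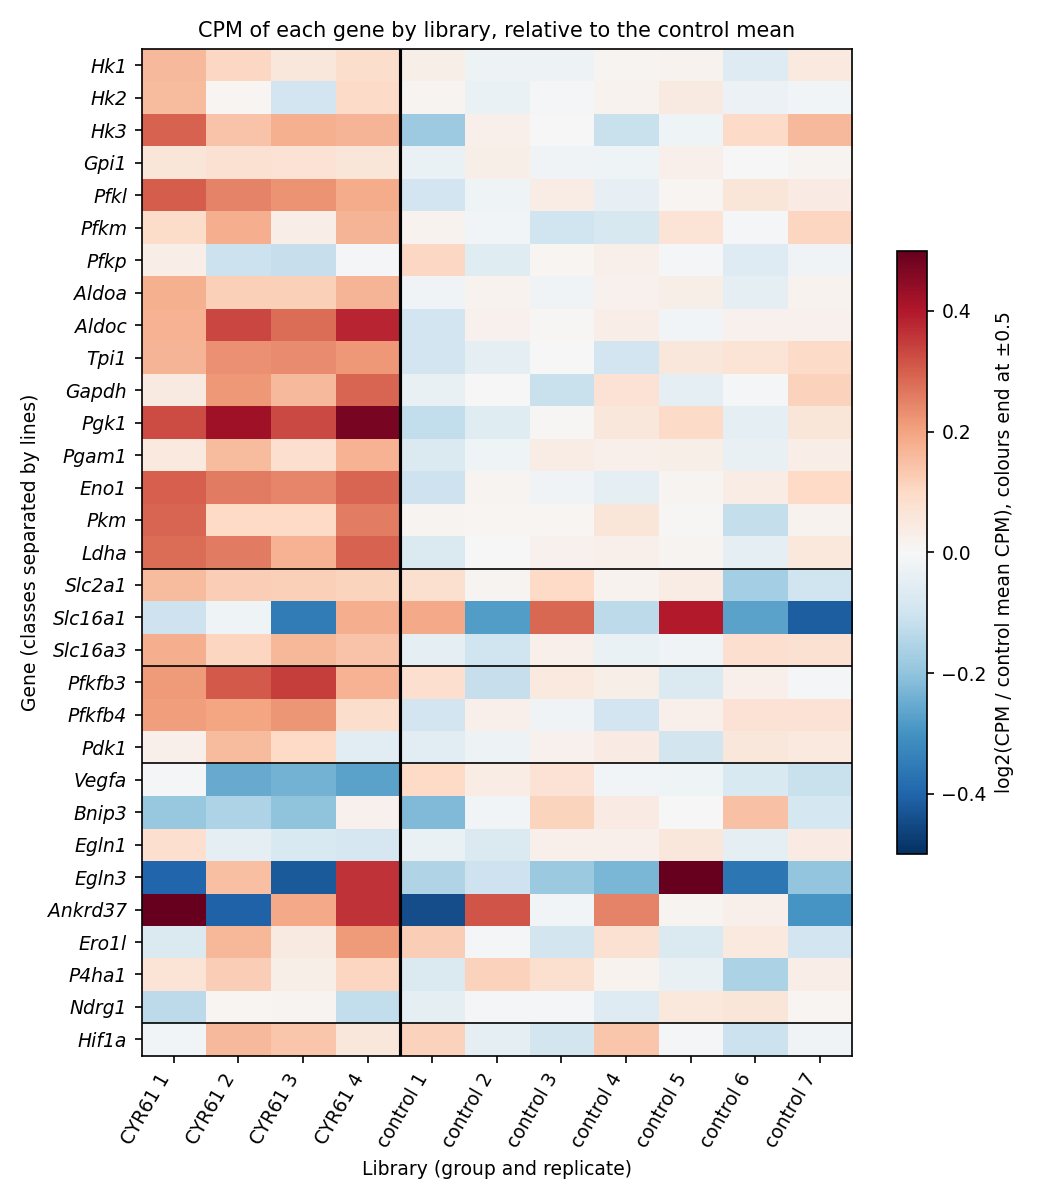
Log2 of each gene's CPM over its control mean (colour, ending at ±0.5) in the 4 CYR61 libraries on the left and the 7 control libraries on the right, genes grouped by class as lines separate them. Enzymes are mostly red in every CYR61 library, while Vegfa is blue in CYR61 replicates 2 to 4 and the low-count genes Egln3 and Ankrd37 vary within both groups.

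Per kb of exon, the order of the enzymes in control libraries was led by Pkm (836 CPM per kb), Aldoa (545), Gapdh (185), Pgam1 (160), Ldha (149) and Eno1 (148 CPM per kb). Ldha and Eno1 differed by less than their spread there (149 ± 4.41 and 148 ± 6.60 CPM per kb, SD), as they did in CYR61 libraries (178 ± 6.65 and 179 ± 3.22 CPM per kb). The high place of Pkm and Aldoa was the same in both groups, at 953 and 603 CPM per kb in CYR61 libraries. At the low end, Pfkm had 8.24 CPM per kb in CYR61 libraries and 7.58 CPM per kb in control libraries. Pgk1 stood at 107 ± 5.42 CPM per kb in CYR61 libraries and 81.6 ± 4.42 CPM per kb in control libraries (SD).

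Of the transporters, 1 of 3 rose, against 5.33% of all genes tested. Slc16a3 encodes MCT4, a lactate exporter of glycolytic cells, and had 44.2, 41.9, 43.7 and 43.0 CPM in CYR61 replicates 1 to 4, against 36.3 to 41.3 CPM in control libraries. The groups did not overlap (1.11-fold, edgeR adjusted p = 0.0297), but the call was lost without CYR61 replicate 1, 3 or 4 or control replicate 2 or 5 (adjusted p = 0.0507 to 0.085). Slc2a1, which encodes the glucose transporter GLUT1, had 46.0, 44.8, 44.7 and 44.5 CPM in CYR61 replicates 1 to 4, against 36.6 to 44.2 CPM in control libraries. The CYR61 values again all exceeded the controls, but the gene did not pass (edgeR adjusted p = 0.11). Slc16a1, the lactate transporter MCT1, was near 5 CPM in both groups (4.80 ± 0.721 in CYR61 libraries and 5.01 ± 1.12 in control libraries, SD), with wide overlap and an edgeR adjusted p of 0.903.

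Of the flux regulators, 2 of 3 rose, against 5.33% of all genes tested. Pfkfb3 and Pfkfb4 encode enzymes that make and break down the sugar bisphosphate that activates phosphofructokinase. Pfkfb3 had 32.6, 34.9, 35.7 and 31.8 CPM in CYR61 replicates 1 to 4, against 26.0 to 29.9 CPM with a median of 28.6 CPM in control libraries. All CYR61 libraries exceeded all controls (log2 fold change 0.26 ± 0.05, SE; edgeR adjusted p = 0.00159). Pfkfb4 had 60.6, 60.2, 61.2 and 55.7 CPM in CYR61 replicates 1 to 4, against 49.0 to 55.2 CPM in control libraries. It rose 1.13-fold (edgeR adjusted p = 0.00953), with CYR61 replicate 4 just above the highest control. Its adjusted p was 0.0518 by library size alone. Pdk1, a kinase that shuts pyruvate out of the mitochondrial citrate cycle and a HIF target, averaged 37.8 ± 2.45 CPM in CYR61 libraries and 36.3 ± 1.44 CPM in control libraries (SD) and did not pass (edgeR adjusted p = 0.519).

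Among the other hypoxia targets, Vegfa, which encodes the main growth factor for blood vessels, was lower. It had 85.8, 72.4, 73.1 and 71.5 CPM in CYR61 replicates 1 to 4, against 79.7 to 92.2 CPM with a median of 85.4 CPM in control libraries. CYR61 replicates 2 to 4 lay below every control, whereas replicate 1 lay at the control median. Its log2 fold change was -0.19 ± 0.05 (SE; edgeR adjusted p = 0.0289). The call was lost without CYR61 replicate 2, 3 or 4 or control replicate 2 or 3 (adjusted p = 0.0597 to 0.123).

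The remaining targets did not pass. Egln1 and Egln3 encode the prolyl hydroxylases that mark HIF alpha for degradation, and both are induced by HIF. Egln1 had 43.2, 39.5, 38.7 and 38.5 CPM in CYR61 replicates 1 to 4, against 38.8 to 42.4 CPM in control libraries, with an interval of the log2 difference of -0.12 to 0.06 (95%). Egln3 was near the detection limit, with 13 to 24 counts in CYR61 libraries and 14 to 34 counts in control libraries. Its interval of -0.57 to 0.52 on the log2 scale covered changes as large as any seen among the enzymes.

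Bnip3, a mitophagy receptor, averaged 14.2 ± 1.06 CPM in CYR61 libraries and 15.5 ± 1.30 CPM in control libraries (SD; edgeR adjusted p = 0.323). Ndrg1, a stress-responsive gene often used as a hypoxia marker, averaged 117 ± 6.54 CPM in CYR61 libraries and 122 ± 3.98 CPM in control libraries (SD; edgeR adjusted p = 0.419). P4ha1, a collagen prolyl hydroxylase subunit, averaged 56.6 ± 1.66 CPM in CYR61 libraries and 53.4 ± 3.42 CPM in control libraries (SD; edgeR adjusted p = 0.315). For all of these the groups overlapped. Ero1l, an oxidase of protein folding in the endoplasmic reticulum, likewise overlapped, at 34.9 ± 3.05 CPM in CYR61 libraries and 32.8 ± 2.01 CPM in control libraries (SD; edgeR adjusted p = 0.38). Ankrd37, an ankyrin-repeat gene induced by hypoxia, varied from 1.28 to 2.77 CPM among CYR61 libraries and 1.25 to 2.11 CPM among control libraries. Adm, which encodes the vasodilator adrenomedullin, had 0 counts in all CYR61 libraries and at most 2 counts in a control library. A count of 0 allows up to 3 counts, or 0.143 to 0.201 CPM.

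Hif1a itself averaged 73.8 ± 4.09 CPM in CYR61 libraries and 69.5 ± 4.69 CPM in control libraries (SD), with overlap and an edgeR adjusted p of 0.318. The 95% interval of its log2 fold change was -0.01 to 0.19. HIF is controlled mainly through the stability of its protein, which these data do not measure.

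The enzymes and the other targets were also compared library by library. The median over the 16 enzymes of log2 CPM relative to the control mean was 0.17, 0.17, 0.14 and 0.18 in CYR61 replicates 1 to 4, against -0.05 to 0.05 in control libraries, so each CYR61 library was higher than each control. For the 8 other targets tested it was -0.04, -0.02, -0.03 and 0.07 in CYR61 replicates 1 to 4, against -0.09 to 0.02 in control libraries, with overlap. The enzyme median minus the target median was 0.21, 0.19, 0.17 and 0.11 in CYR61 replicates 1 to 4. In control replicates 1 to 6 it was between -0.01 and 0.01. Control replicate 7 stood at 0.14, above CYR61 replicate 4. The choice of genes was made with earlier results known, so this comparison is a description without a test.

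**Figure D4:**
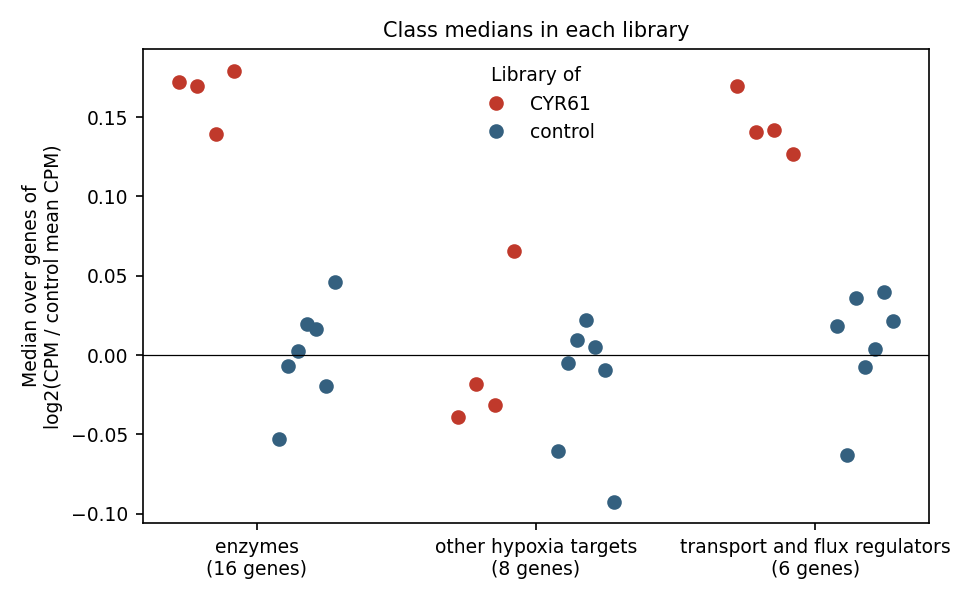
Median over genes of log2 CPM relative to the control mean (vertical axis) in each CYR61 library and each control library, CYR61 left of control within each of 3 classes. CYR61 libraries lie above all controls for the enzymes (0.14 to 0.18) and for transport and flux regulators (0.13 to 0.17), and overlap with controls for the other hypoxia targets.

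Promoters of 6 of these genes are shown to set the hypoxia response element beside the responses: 3 enzymes of the lower stage that rose most in it, Pfkl, Vegfa, and Adm, which was almost without counts. The core of this element is ACGTG or GCGTG, and both were searched on both strands. CACGTG, the E-box bound by factors such as MYC, contains ACGTG and can therefore count as both. Each sequence is the 250 bases before the transcription start from RefSeq (GRCm38.p6), written 5′ to 3′ on the gene's strand with matches in capitals. They lie at chrX:106186850-106187099 (Pgk1, plus strand), chr4:150236458-150236707 (Eno1, plus), chr7:46845554-46845803 (Ldha, plus), chr10:78009808-78010057 (Pfkl, minus), chr17:46032378-46032627 (Vegfa, minus) and chr7:110627407-110627656 (Adm, plus). None of these bases lies in an annotated exon of its own gene.
Pgk1: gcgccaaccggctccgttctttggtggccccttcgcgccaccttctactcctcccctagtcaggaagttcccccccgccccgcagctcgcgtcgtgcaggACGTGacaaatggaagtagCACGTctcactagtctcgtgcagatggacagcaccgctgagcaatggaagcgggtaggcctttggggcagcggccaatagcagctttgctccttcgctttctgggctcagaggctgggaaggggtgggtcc
Eno1: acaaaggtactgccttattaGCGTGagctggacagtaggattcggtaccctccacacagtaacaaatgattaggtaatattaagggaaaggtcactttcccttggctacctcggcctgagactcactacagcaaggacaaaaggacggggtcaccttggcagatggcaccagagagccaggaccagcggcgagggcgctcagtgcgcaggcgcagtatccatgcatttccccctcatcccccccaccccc
Ldha: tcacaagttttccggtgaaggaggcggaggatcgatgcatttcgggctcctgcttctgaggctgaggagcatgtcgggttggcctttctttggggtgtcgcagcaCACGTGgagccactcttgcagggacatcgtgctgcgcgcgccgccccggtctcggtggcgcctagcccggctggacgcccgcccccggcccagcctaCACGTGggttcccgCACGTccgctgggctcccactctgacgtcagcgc
Pfkl: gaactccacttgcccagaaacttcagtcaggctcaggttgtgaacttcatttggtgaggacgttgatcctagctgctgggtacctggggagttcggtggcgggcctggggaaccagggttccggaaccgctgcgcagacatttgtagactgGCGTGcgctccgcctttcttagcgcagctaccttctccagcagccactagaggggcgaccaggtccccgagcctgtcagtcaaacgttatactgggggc
Vegfa: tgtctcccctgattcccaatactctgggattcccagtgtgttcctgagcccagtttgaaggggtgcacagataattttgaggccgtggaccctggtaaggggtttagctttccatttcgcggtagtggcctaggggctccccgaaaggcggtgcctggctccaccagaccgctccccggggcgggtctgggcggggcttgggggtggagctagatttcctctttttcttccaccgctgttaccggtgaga
Adm: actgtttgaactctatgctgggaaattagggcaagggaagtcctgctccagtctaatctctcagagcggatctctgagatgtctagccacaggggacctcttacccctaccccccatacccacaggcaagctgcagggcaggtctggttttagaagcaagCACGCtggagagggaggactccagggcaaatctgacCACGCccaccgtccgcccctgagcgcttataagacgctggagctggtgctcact

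Pgk1, with the largest rise, held 2 matches to ACGTG, starting 150 and 131 bases before the start. Ldha held 2 CACGTG E-boxes, each of which reads ACGTG on both strands, and 1 further ACGTG 34 bases before the start. Eno1 held 1 GCGTG 230 bases and Pfkl 1 GCGTG 99 bases upstream. Adm, with no counts in CYR61 libraries, held 2 GCGTG. Vegfa held no match to either, which says only that these letters are not in this window.

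Over the 300-base windows of the table (250 bases before to 50 after the start, the most upstream start per gene), either core was found for 25 of the 31 members matched (80.6%). Ndrg1 was not matched. The share was 11 of 16 for the enzymes (68.8%), 7 of 8 for the other targets (87.5%) and 6 of 6 for transport and flux regulators. Among genes tested that were matched by symbol it was 62.5% of 10040, and among all 27025 genes with a promoter entry 43.8%. Aldoa, Tpi1, Pkm and Hk1 rose and held neither core in this window, and Gpi1, which did not pass, held neither as well.

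Genes around this pathway were read from further lists, beside 5.33% of all genes tested called higher and 2.63% lower. Of 16 tested genes for other glycolysis enzymes and isoforms, 1 rose (6.25%) and 0 fell. It was Pgm1, a phosphoglucomutase linking glycogen to glycolysis, at 30.0 ± 1.58 CPM in CYR61 libraries and 26.8 ± 0.992 CPM in control libraries (SD; edgeR adjusted p = 0.038). The Pgm1 call was lost without CYR61 replicate 2 or 4 or any 1 of control replicates 1 to 5 (adjusted p = 0.053 to 0.148), and by library size alone the list had 0 higher and 1 lower. Of 11 genes for pyruvate entry into mitochondria, such as the pyruvate dehydrogenase subunits, 0 passed in edgeR, DESeq2 or limma-voom, and 1 was higher at an unadjusted p under 0.05 in edgeR. Of 8 pentose phosphate genes 1 rose, Tkt, a transketolase that returns sugars to glycolysis, at 507 ± 6.25 CPM in CYR61 libraries and 461 ± 10.2 CPM in control libraries (SD; edgeR adjusted p = 0.00346).

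Of 25 further tested hypoxia targets, 2 rose (8.0%, against 5.33% of all genes tested) and 3 fell (against 2.63% of all genes tested). Their median log2 fold change was -0.04. Bhlhe40, a transcriptional repressor, had 36.3, 33.2, 34.0 and 30.9 CPM in CYR61 replicates 1 to 4, against 38.5 to 42.4 CPM in control libraries. All CYR61 libraries lay below all controls (log2 fold change -0.28 ± 0.04, SE; edgeR adjusted p = 0.000398). Cxcr4, a chemokine receptor, had 279, 283, 285 and 307 CPM in CYR61 replicates 1 to 4, against 307 to 325 CPM in control libraries, and fell (edgeR adjusted p = 0.00966; 0.0505 without CYR61 replicate 2). Kdm3a, a histone demethylase, averaged 61.1 ± 3.33 CPM in CYR61 libraries and 68.0 ± 3.19 CPM in control libraries (SD; edgeR adjusted p = 0.0268). That call was lost without CYR61 replicate 1, 2 or 3 or control replicate 2, 4 or 6 (adjusted p = 0.0501 to 0.0918).

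The 2 that rose were Plod1 and Mif. Plod1, a collagen lysyl hydroxylase, averaged 238 ± 4.19 CPM in CYR61 libraries and 217 ± 10.2 CPM in control libraries (SD; edgeR adjusted p = 0.0219, and 0.065 without CYR61 replicate 3). Mif, a macrophage cytokine named after its values were seen, averaged 70.8 ± 2.99 CPM in CYR61 libraries and 60.2 ± 6.66 CPM in control libraries (SD; edgeR adjusted p = 0.0383). The Mif call was lost without CYR61 replicate 2, 3 or 4 or control replicate 2, 3 or 4 (adjusted p = 0.0548 to 0.119). By library size alone this list had 0 higher and 4 lower.

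Of 10 tested genes of the HIF pathway itself, 0 rose and 1 fell in edgeR. At an adjusted p under 0.05, 0 also rose in DESeq2 and limma-voom. At an unadjusted p under 0.05, 2 were higher in edgeR and 1 each in DESeq2 (12 tested) and limma-voom. The 1 that fell was Cited2, a HIF target that competes with HIF for its coactivator. It averaged 119 ± 4.98 CPM in CYR61 libraries and 130 ± 5.03 CPM in control libraries (SD, edgeR adjusted p = 0.0316). The Cited2 call was lost without CYR61 replicate 1, 2 or 4 or control replicate 2 or 3 (adjusted p = 0.05 to 0.127). Of 6 tested regulators of glycolysis, 1 rose and 0 fell, with a median log2 fold change of -0.03. Only 1 of the 6 had a positive log2 fold change, and the lowest was -0.50, in a gene that did not pass. The 1 that rose was Arrdc4, an arrestin-domain protein that limits glucose uptake. It averaged 33.6 ± 1.40 CPM in CYR61 libraries and 28.6 ± 1.11 CPM in control libraries (SD, edgeR adjusted p = 0.00218). All 4 CYR61 values for Arrdc4 (31.9 to 35.3 CPM) were above the controls (27.4 to 29.9 CPM). By library size alone 1 of these 6 was also called lower. In the main fit the shares over all genes tested were 5.33% higher and 2.63% lower.

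The authors' deposited table lists 31 of the 32 genes, with 7.85% of its 13999 genes higher and 4.44% lower at an adjusted p under 0.05. Of the 31, the authors' deposited table has 16 higher and 1 lower. The sign was the same for all 31, and the call was the same for 30. The exception was Gpi1, higher in the authors' deposited table with an adjusted p of 0.018.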

How the data were processed

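RNA of mouse bone marrow-derived macrophages was sequenced after ribosomal RNA removal with paired reads of 150 bases, per the labels' protocols. DRAGEN was used upstream, per the submitters' processing notes; in the sources used here no build, annotation or counting method is given. The authors deposited estimated counts per Ensembl gene, not normalized, of which 88.6 to 89.4% per library were whole (exact equality). Strand use is not stated, so reads of overlapping antisense genes cannot be told apart. The authors also deposited log2 CPM per library, log2 fold changes, p-values and scores (t, log odds and signed linear fold change) of their own comparison, whose method is not stated.

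Of 55774 lines, 287 repeated gene IDs were dropped. The rounded counts went into edgeR 4.0.16 under R 4.3.3 (filterByExpr, TMM, glmQLFit, glmQLFTest) over all 11 libraries without covariates, two-sided, with Benjamini-Hochberg adjustment over 15135 genes at 0.05. The biological coefficient of variation was 5.64%. CPM are TMM-scaled, and folds are those of the fit. Exon length (union, for CPM per kb) is from GENCODE M21 and may differ from the authors' annotation. Pairs of libraries within a group differed by a chi-square per gene of 2.90 to 33.4, so none was treated as a duplicate. CYR61 replicate 4 stood apart, at 33.4, 29.9 and 19.2 from CYR61 replicates 1 to 3, against at most 10.6 for every other pair. The limit for 0 counts covers counting error only.

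Alternatives were DESeq2 1.42.0, limma-voom (limma 3.58.1), RLE factors, library size alone, no filter, a filter at a mean of 1 CPM, no mitochondrial or ribosomal RNA genes, a replicate block, leaving out each library, leaving out CYR61 replicates 1 and 4 together, the wider group of 22 glycolysis genes, and enzymes without copies. Adding the copies' counts, leaving out Gpi1 with the other 7 enzymes that have copies, and leaving libraries out of the isoform shares were chosen after seeing the data. The fit was tested on simulated data. The members, lists and promoters were chosen with earlier results of these data known. Named genes are all 32 members and, per further list, up to 4 called genes averaging 1 CPM or more, by p; others are said to be named after their values were seen.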

Additional observations from a re-analysis of the deposited data

Results flagged for a closer look

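In 68 sets of libraries (each gene or library measure within the CYR61 or the control group), 5 had 1 library far from the others by Dixon's test, where chance gives about 1 in 20. Vegfa was 85.8 CPM in CYR61 replicate 1 and 71.5 to 73.1 CPM in the other CYR61 libraries. The share of ribosomal RNA genes was 2.41% of counts for CYR61 replicate 4, against 0.246 to 0.562% for CYR61 replicates 1 to 3. Pkm was 2001 CPM in control replicate 6 and 2181 to 2263 CPM in the other controls. Aldoc was 52.1 CPM in control replicate 1 and 55.1 to 57.0 CPM in the other controls. Egln3 was 1.82 CPM in control replicate 5 and 0.795 to 0.951 CPM in the other controls. The cause of these values was not tested.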

How the results depend on the processing

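Of the 16 members called, 8 were called in all 22 alternatives that gave each gene a value: Pfkl, Aldoa, Aldoc, Tpi1, Pgk1, Eno1, Ldha and Pfkfb3. Of the 15 that did not pass, 14 passed in none of them, Gpi1 with DESeq2 being the exception. By library size alone, 529 genes were higher and 938 lower, 9 members were higher, and the enzyme median log2 fold change was 0.14. Without CYR61 replicates 1 and 4 together that median was also 0.14, and the log2 fold changes of Hk2 (-0.039), Ankrd37 (-0.095) and Ndrg1 (0.0115) changed sign. Without all 8 enzymes that have copies, 5 enzymes were higher and the median was 0.15, and with Gpi1 kept 5 and 0.12. With 1 library left out, 788 to 1372 genes were called, 583 to 903 higher and 205 to 469 lower. Members called higher ranged from 11 to 15 and lower from 0 to 1, enzymes higher from 9 to 12, and other targets lower from 0 to 1. The enzyme median ranged from 0.16 to 0.20 and that of the other targets from -0.051 to 0.031, and Slc16a1 (-0.14 to 0.032) and Egln3 (-0.18 to 0.18) changed sign.

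Replicate numbers 1 to 4 are shared between the groups, but same-numbered libraries did not deviate together (correlations -0.03 to 0.03 in 4 pairs; 1 of 4 correlated best with its own number), so they were not taken as pairs. With the replicate block on these 8 libraries, 1261 genes, 13 members higher and 1 lower were called, against 1267, 13 and 1 without the block. The median of the other targets was 0.01 in both, and Egln3 was 0.12 with the block and 0.14 without. In the wider group of 22 glycolysis genes 15 were higher, with a median of 0.16. Without CYR61 replicates 1 and 4 together, the Pfkl and Pfkp shares still did not overlap (exact permutation adjusted p = 0.0833; 36 splits). Low counts limit Egln3, Ankrd37 and Slc16a1, whose intervals are wide, and leave Adm untested.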

Other observations

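Lox, a collagen-crosslinking enzyme and hypoxia target, was below the filter on low counts and was chosen after its values were seen. It had 0.388, 0.986, 0.528 and 0.546 CPM in CYR61 replicates 1 to 4, against 0 to 0.224 CPM in control libraries, and at most 20 counts in a library. The groups did not overlap, with CYR61 above. The same held for 4.65% of all genes tested, a set that does not hold Lox, and the share among genes below the filter was not computed. Lox was not in the main fit, and its values from the alternatives without this filter are not given.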
